A study of Mus musculus with 6 samples.

Results

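Secretoglobins are small secreted proteins, and this family includes the androgen-binding proteins of mouse saliva. The members described here are the genes whose symbol begins with Scgb and a digit, 25 of the 24054 genes in the count table. They comprise 9 Scgb1b genes, 12 Scgb2b genes, 2 Scgb3a genes, Scgb1a1 and Scgb1c1. RNA sequencing of mouse salivary gland compared 3 control libraries with 3 libraries from K5-rtTA:TetO-RANKL mice, called K5-RANKL below. In the K5-RANKL mice a keratin 5 promoter drives rtTA, an activator that needs doxycycline, and rtTA switches on a TetO-driven transgene for RANKL, the cytokine encoded by Tnfsf11. The controls were monogenic, and the labels do not name the transgene they carried. Both groups were given doxycycline by mouth for 2 weeks from 9 weeks of age, and each library came from the pooled salivary glands of 5 mice. The labels name neither the strain and sex of the mice nor the glands that were pooled.

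As background, secretoglobins fold as bundles of helices that enclose a hydrophobic pocket, and most work as dimers. A mouse salivary androgen-binding protein pairs an alpha subunit, encoded by an Scgb1b gene, with a beta or gamma subunit encoded by an Scgb2b gene. The dimers bind androgens, reach the coat when the animal grooms and have been studied as signals in mate choice between mouse subspecies. Their genes lie in a fast-evolving cluster on chromosome 7. Scgb1b27 encodes the alpha subunit found in saliva, and Scgb2b27 and Scgb2b26 encode the salivary beta and gamma subunits. Scgb1a1, Scgb3a1 and Scgb3a2 are best known from the secretory cells of the airways.

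Of the 25 members, 18 had a count in some library and 7 were listed at 0 in all 6. Only 4 had 10 or more counts in any 3 libraries, namely Scgb1b27, Scgb2b27, Scgb2b26 and Scgb1c1. The same 4 passed the filter on low counts, so 21 members were below it and entered no test. Total counts were 13875951 to 17921815 per control library and 14149734 to 16412579 per K5-RANKL library. Levels are CPM, counts scaled to a common library size that was adjusted by TMM, which sets the bulk of genes level between libraries. The TMM factor was 0.708 ± 0.0293 (SD, n = 3) for controls and 1.41 ± 0.0802 (SD, n = 3) for the other group, so the scaling itself differed between the groups. Tnfsf11 stood at 2.19 ± 1.45 CPM in controls (SD, n = 3) and at 610 ± 178 CPM under the transgene (SD, n = 3). Of 7 salivary acinar cell markers in the table, none was at 0 in either group. Control 2 stood apart in a small set of genes, and the fold changes of the tested members are given with and without it. Shares and summed levels of lists are given only with it.

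All 21 Scgb1b and Scgb2b genes lie on chromosome 7 of GRCm38.p6, between positions 31290519 and 34100837, a span of 2.81 Mb. The coordinates and sequences here are those of RefSeq on that build. Several Scgb1b and Scgb2b genes share a number and form pairs. Scgb1b3 (position 31375592 to 31376916, plus strand) and Scgb2b3 (position 31359038 to 31362100, minus strand) were head to head, with no distance computed. The other 6 such pairs were also head to head on opposite strands, with starts 4.49 to 10.95 kb apart. Scgb1b27 (position 34021481 to 34022881, plus strand) and Scgb2b27 (position 34011919 to 34013942, minus strand) form one such pair, 7.54 kb apart. Scgb2b26 (position 33942997 to 33944985, minus strand) lies 78.5 kb before the Scgb1b27 start. Each of the 25 genes has 3 exons in its principal transcript. Scgb1c1 lies elsewhere on chromosome 7, and the other members lie on other chromosomes.

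The 250 bases before the annotated start are shown for the most abundant alpha subunit gene and the most abundant beta subunit gene, since these genes lie head to head. Capitals mark TGACCT, a run of letters searched on both strands and chosen after the sequences were seen. It occurs at 2 places in the Scgb1b27 window and at none in the Scgb2b27 window.
Scgb1b27 (chr7:34021231-34021480, plus strand): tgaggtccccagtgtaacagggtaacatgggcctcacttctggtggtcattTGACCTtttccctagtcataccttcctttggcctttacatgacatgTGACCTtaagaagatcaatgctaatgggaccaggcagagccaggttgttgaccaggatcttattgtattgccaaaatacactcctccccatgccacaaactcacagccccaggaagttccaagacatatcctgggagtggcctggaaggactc
Scgb2b27 (chr7:34013943-34014192, minus strand): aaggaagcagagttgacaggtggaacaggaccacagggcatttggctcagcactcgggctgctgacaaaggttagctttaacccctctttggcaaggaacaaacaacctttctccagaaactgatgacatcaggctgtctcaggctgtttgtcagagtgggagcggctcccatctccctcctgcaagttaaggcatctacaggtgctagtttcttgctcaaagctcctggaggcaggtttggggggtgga

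TGACCT was in all 4 Scgb1b promoters in the RefSeq table and in 1 of 11 Scgb2b promoters, beside 13.8% of all 27025 promoters of that length. TGTTCT, letters found in steroid receptor binding sites, was in 8 of 11 Scgb2b promoters and in 0 of 4 Scgb1b promoters, beside 16.2% of all promoters. TATAAA was in 9 of 11 Scgb2b and 2 of 4 Scgb1b promoters, beside 13% of all. A promoter entry was found for 17 of the 25 members. These matches describe letters in a window and show no binding.

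Most Scgb2b promoters share the longer run TGTTTGTTCT, the commonest 10 bases among them that end in TGTTCT. The stretch of 34 bases around it is printed for the 11 Scgb2b genes with an entry, to set the abundant genes beside paralogues with few or no counts. Capitals mark the run, which was chosen after the sequences were seen and searched on both strands.
Scgb2b2 (chr7:31302573-31302606, plus strand): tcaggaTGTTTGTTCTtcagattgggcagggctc
Scgb2b3 (chr7:31362244-31362277, minus strand): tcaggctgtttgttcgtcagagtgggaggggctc
Scgb2b7 (chr7:31705913-31705946, minus strand): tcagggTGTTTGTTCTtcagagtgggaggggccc
Scgb2b12 (chr7:32327404-32327437, minus strand): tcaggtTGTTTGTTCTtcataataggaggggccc
Scgb2b15 (chr7:32829816-32829849, minus strand): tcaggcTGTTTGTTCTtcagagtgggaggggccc
Scgb2b17 (chr7:33056715-33056748, minus strand): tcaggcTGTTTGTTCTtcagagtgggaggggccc
Scgb2b19 (chr7:33280495-33280528, minus strand): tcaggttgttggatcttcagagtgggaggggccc
Scgb2b20 (chr7:33366475-33366508, minus strand): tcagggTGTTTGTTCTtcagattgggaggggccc
Scgb2b24 (chr7:33739465-33739498, minus strand): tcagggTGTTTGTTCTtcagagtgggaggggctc
Scgb2b26 (chr7:33945136-33945169, minus strand): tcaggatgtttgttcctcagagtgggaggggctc
Scgb2b27 (chr7:34014020-34014053, minus strand): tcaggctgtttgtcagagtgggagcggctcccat

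The run was in 7 of these 11 promoters and in 55 of 27025 promoters in all (0.204%). It was in 15 of 20 Scgb2b promoters of RefSeq, and 40 of the 55 belonged to genes outside the secretoglobin family. Neither Scgb2b26 nor Scgb2b27 had it, and these were the only Scgb2b genes above 638 counts over all libraries. Scgb2b3 and Scgb2b19, both at 0 counts, lacked it too, and Scgb2b15 and Scgb2b17, also at 0 counts, had it. The stretch began 177 to 203 bases before the annotated start in 10 genes and 111 bases before it in Scgb2b27. The windows of Scgb2b26 and Scgb2b27 were 90.4% identical over 177 aligned bases, and those of Scgb1b27 and Scgb1b30 were 94.4% identical over 232 aligned bases. Scgb1b30 had 2 counts in all libraries together, while Scgb1b27 had 3158076.

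The 3 salivary androgen-binding protein genes took some of the highest counts of the control gland, and all were lower in the K5-RANKL libraries. Scgb1b27, the alpha subunit gene, was 4.71-fold lower, Scgb2b27, the beta subunit gene, 4.09-fold lower and Scgb2b26, the gamma subunit gene, 8.06-fold lower. Scgb1c1, a secretoglobin of the olfactory mucosa that was rare here, was 3.20-fold lower. All 4 tested members were called lower at an adjusted p under 0.05 in edgeR's quasi-likelihood test, and none was called higher. In the same comparison 66.2% of 14044 genes were called, 34.2% higher and 32.1% lower, so a call alone sets no gene apart. By size, all 4 members were called lower by at least 2-fold and 3 by at least 4-fold, beside 9.01% and 1.74% of the genes tested. By library totals alone the log2 fold changes were smaller, -1.24 for Scgb1b27, -1.03 for Scgb2b27, -2.03 for Scgb2b26 and -0.68 for Scgb1c1, so that 1 member reached 4-fold and Scgb1c1 did not reach 2-fold. The median log2 fold change of the 4 members was -2.13, beside 0.01 for all genes tested. The groups overlapped in none of the 4, which was also so, in the lower direction, of 34.1% of the genes tested. In bulk tissue fewer cells of a type and less RNA per cell cannot be told apart. Since each library is a pool, the p-values rest on the spread among pools and not among mice.

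**Figure D1:**
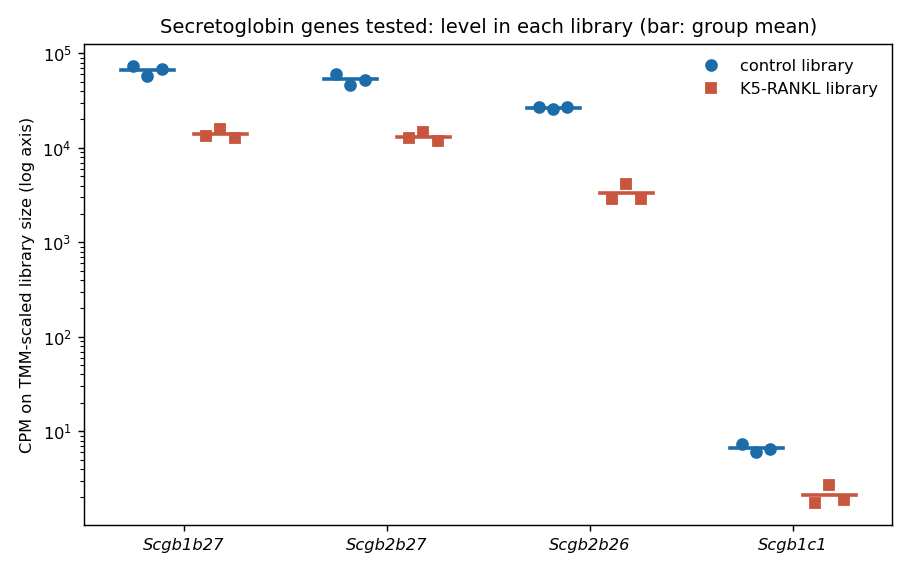
Level of the 4 tested secretoglobin genes in each library, in TMM-scaled CPM on a log axis, with circles for control, squares for K5-RANKL and a bar at each group's mean. Every K5-RANKL library lies below every control library for each gene, from 16031 or less against 57309.5 or more for Scgb1b27 to 2.73 or less against 6.09 or more for Scgb1c1.

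Scgb1b27 stood at 73875.5, 57309.5 and 68308.3 CPM in controls 1, 2 and 3, and at 13474, 16031 and 12837.5 CPM in K5-RANKL 1, 2 and 3. Control 2 was the lowest control and K5-RANKL 2 the highest of its group, and the gap between the groups was wider than the spread within either. The means were 66497.8 ± 8430.1 and 14114.2 ± 1690.26 CPM (SD, n = 3 each), a log2 fold change of -2.24 (SE 0.16, edgeR adjusted p = 1.39e-09). By mean CPM, which is not adjusted for length, the gene ranked at place 3 of all genes in controls and at place 4 in K5-RANKL libraries. Of the genes tested, 1.30% had a log2 fold change as low or lower.

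Scgb2b27 stood at 60410.5, 46668.5 and 52504 CPM in controls 1, 2 and 3, and at 12579.9, 14669.8 and 11803.9 CPM in K5-RANKL 1, 2 and 3. As for its head-to-head partner, control 2 was the lowest control and K5-RANKL 2 the highest K5-RANKL library. The means were 53194.3 ± 6896.97 and 13017.9 ± 1482.29 CPM (SD, n = 3 each), a log2 fold change of -2.03 (SE 0.15, edgeR adjusted p = 3.45e-09). The gene kept place 5 by mean CPM in both groups.

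Scgb2b26 stood at 27037.6, 25889.6 and 27068.2 CPM in controls 1, 2 and 3, and at 2852.33, 4196.89 and 2873.99 CPM in K5-RANKL 1, 2 and 3. The 3 controls lay closer together than for the other subunit genes, and K5-RANKL 2 was again the highest of its group. The means were 26665.1 ± 671.771 and 3307.73 ± 770.108 CPM (SD, n = 3 each), a log2 fold change of -3.01 (SE 0.16, edgeR adjusted p = 4.66e-11). The gene went from place 7 by mean CPM in controls to place 12 in K5-RANKL libraries, and 0.570% of the genes tested had a log2 fold change as low or lower.

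Scgb1c1 had 80, 62 and 84 counts in controls 1, 2 and 3, and 42, 51 and 40 counts in K5-RANKL 1, 2 and 3. On the CPM scale these were 7.37, 6.09 and 6.57 against 1.74, 2.73 and 1.86. The groups did not overlap, and K5-RANKL 2 was the highest of its group here as well. The log2 fold change was -1.68 (SE 0.20, edgeR adjusted p = 8.33e-07). The gene lies far down the ranking, at place 9384 in controls and 12263 in K5-RANKL libraries, and its precision is limited by these counts.

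Levels of different genes can be compared only per length of transcript. The principal transcripts have 493 bases for Scgb1b27, 512 for Scgb2b27 and 579 for Scgb2b26. Per kb of transcript, the mean level in controls was 134884 ± 17099.9 CPM for Scgb1b27, 103895 ± 13470.5 for Scgb2b27 and 46053.8 ± 1160.31 for Scgb2b26 (SD, n = 3 each). In K5-RANKL libraries the corresponding levels per kb were 28629.1 ± 3428.48, 25425.5 ± 2895.14 and 5712.84 ± 1330.06 CPM (SD, n = 3 each). The alpha gene was thus the highest, the beta gene next and the gamma gene the lowest in both groups. Within each of the 6 libraries alpha was above beta and beta above gamma, although the ranges of alpha and beta over libraries overlapped in both groups.

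The counts were also taken as a share of each library, which needs no scaling. The 25 genes together held 10.9%, 9.55% and 10.5% of all counts in controls 1, 2 and 3, and 4.24%, 4.61% and 3.99% in K5-RANKL 1, 2 and 3. Nearly all of this came from Scgb1b27, Scgb2b27 and Scgb2b26. The mean share was 10.3% ± 0.707 for controls and 4.28% ± 0.312 for K5-RANKL (SD, n = 3 each; exact permutation test, two-sided, p = 0.1, the smallest p that 3 against 3 allow). The mean share in controls was 2.41 times that in K5-RANKL libraries. When each subfamily was summed before the fit, which does not depend on how reads were split among paralogues, the log2 fold change was -2.24 for Scgb1b and -2.29 for Scgb2b.

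**Figure D2:**
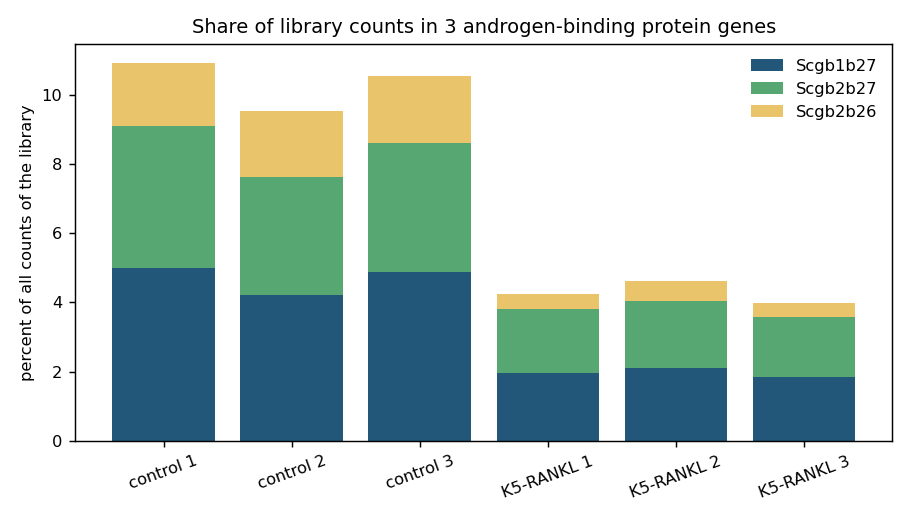
Percent of all counts of each library taken by Scgb1b27, Scgb2b27 and Scgb2b26, stacked, for 3 control and 3 K5-RANKL libraries. All secretoglobin genes together held 9.55% to 10.9% in controls and 3.99% to 4.61% in K5-RANKL libraries, nearly all of it in these 3 genes. The layer of each gene is lower in every K5-RANKL library than in any control.

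The balance of subunit transcripts within the family was described by count ratios, none of which passed its test. The count ratio of Scgb2b26 to Scgb2b27, gamma to beta, was 0.448, 0.555 and 0.516 in controls and 0.227, 0.286 and 0.243 in K5-RANKL libraries. Every K5-RANKL library lay below every control library, and the mean ratio was 2.01 times higher in controls. The ratio of Scgb1b27 to Scgb2b27, alpha to beta, was 1.22, 1.23 and 1.30 in controls and 1.07, 1.09 and 1.09 in K5-RANKL libraries, again without overlap. For each of these ratios the exact permutation test (two-sided) gave p = 0.1, the smallest that 3 against 3 allow, and 0.15 after Benjamini-Hochberg adjustment over the 3 ratios computed. These ratios were chosen after the values were seen.

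The ratio of Scgb1b27 to the sum of Scgb2b26 and Scgb2b27, alpha to all partner subunits, was 0.845, 0.790 and 0.858 in controls and 0.873, 0.850 and 0.875 in K5-RANKL libraries. Here the groups overlapped (exact permutation test, two-sided, p = 0.2). Expressed as percent of all secretoglobin counts, Scgb2b26 went from 18.3% ± 1.57 to 10.8% ± 1.12 and Scgb2b27 from 36.3% ± 1.03 to 42.8% ± 0.745, while Scgb1b27 stood at 45.3% ± 1.13 and 46.4% ± 0.403 (SD, n = 3 each). The principal transcripts of Scgb2b26 and Scgb2b27 were 84.7% identical, with a longest identical run of 45 bases. Scgb1b27 was at most 90.2% identical to another Scgb1b gene of the table, with a longest identical run of 39 bases. How reads that fit several paralogues were counted is not given in those sources.

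The other members of the cluster were near 0 in every library but one. Scgb2b2 had 595 counts in control 2, but 8 and 28 in controls 1 and 3 and 2, 3 and 2 in the K5-RANKL libraries. Scgb1b2, its head-to-head partner, had 540 counts in control 2, 0 and 17 in the other controls and 0 in each K5-RANKL library. Scgb2b20 had 294 counts in control 2, 0 and 6 in the other controls and 0 in each K5-RANKL library. So the counts of these genes were almost all in 1 control pool, whereas the 3 abundant genes were high in all controls.

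The same held for Scgb2b24 with 265 counts in control 2, Scgb1b20 with 204, Scgb2b7 with 87, Scgb1b24 with 29 and Scgb1b7 with 28. Outside control 2 no library had more than 28 counts of any of the 8 genes, and 6 of the 8 were at 0 in all K5-RANKL libraries. Control 2 held 95.6% of their control counts, and each gene was 17.6 to 61.5 times higher there than in the next library. Summed over the 8 genes, the level was 1.75, 200 and 5.95 CPM in controls 1, 2 and 3, and 0.208, 0.321 and 0.280 CPM in K5-RANKL 1, 2 and 3. Control 3 stood at 0.916% to 5.69% of control 2 for the single genes, and control 1 was above it for Scgb2b7 and Scgb1b24. The 8 genes make up 4 head-to-head pairs.

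**Figure D3:**
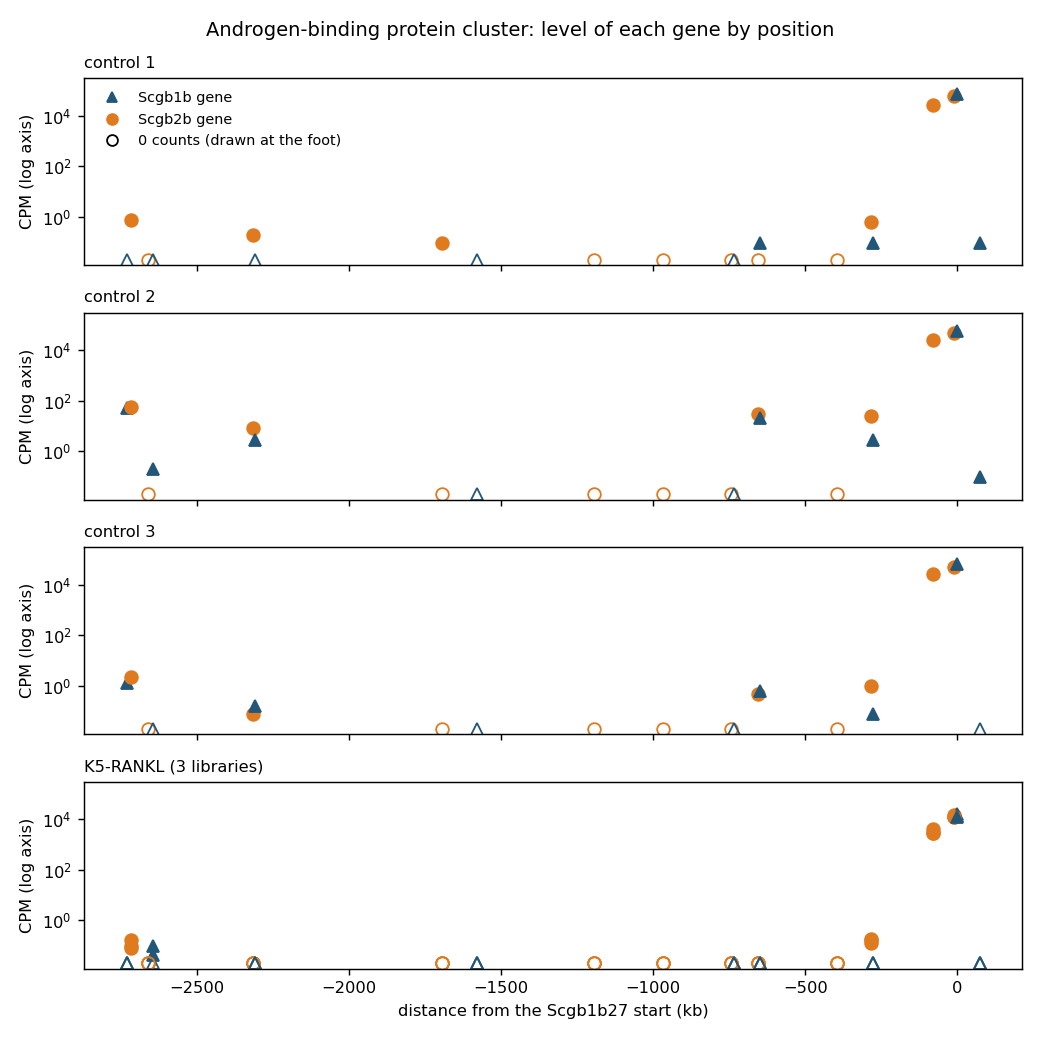
Level of each Scgb1b (triangles) and Scgb2b gene (circles) by its distance from the Scgb1b27 start in kb, as CPM on a log axis, in each control library and in the 3 K5-RANKL libraries drawn together, with open symbols at the foot for 0 counts. Scgb1b27, Scgb2b27 and Scgb2b26 at the right are high everywhere, and the further genes stay under 3 CPM outside control 2, where they reach 58.4 CPM.

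Genes of other families behaved likewise. In control 2, 17 genes had at least 1 CPM and at least 10 times the level of any other library, and no other library had such a gene. Besides the 8 secretoglobins they were Obp1a, an odorant-binding protein gene, the lipocalin gene Lcn11, the exocrine gland peptide genes Esp6, Esp15 and Esp36, and the predicted genes Gm14743, Gm5938, Gm1553 and Gm12886. Obp1a had 1863 counts in control 2, 0 and 60 in the other controls and 0 in each K5-RANKL library. RefSeq gives lacrimal as a synonym of Scgb2b2.

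Of 8 marker genes listed for the lacrimal gland, 4 were in that set, namely Lcn11, Esp6, Esp15 and Obp1a. The summed level of the list was 283, 413 and 142 CPM in controls 1, 2 and 3, and 36.5 to 63.0 CPM in K5-RANKL libraries. It was highest in control 2, although its most abundant gene, Mup5, stood at 236, 151 and 101 CPM in controls 1, 2 and 3. A list of 5 skeletal muscle genes was lowest in control 2, at 8.84 CPM in sum against 68.1 and 87.2 in the other controls. The part of other tissue in the counts of these 8 secretoglobins was not tested. With no filter on low counts, edgeR called none of the 8 (adjusted p 0.0999 to 0.318). Without control 2, the log2 fold change was -2.34 for Scgb1b27, -2.12 for Scgb2b27, -3.04 for Scgb2b26 and -1.74 for Scgb1c1. All 4 tested members were still called.

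**Figure D4:**
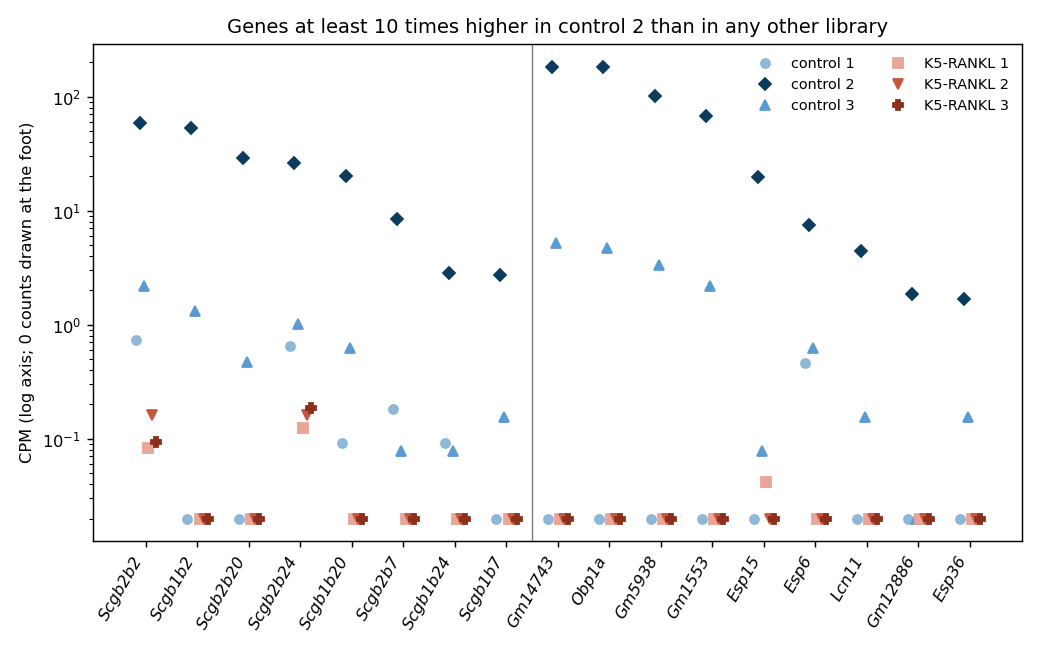
CPM (log axis, 0 counts at the foot) in each of 6 libraries for the 17 genes at least 10 times higher in control 2 than in any other library, with 8 secretoglobin genes left of the line and 9 other genes right of it. Control 2 lies between 1.67 and 184 CPM, and control 3 is the next library for most genes.

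The airway secretoglobins were at the edge of detection. Scgb3a1 had 0 counts in each control and 5, 6 and 3 in K5-RANKL 1, 2 and 3. It was below the filter on low counts, and its K5-RANKL mean of 0.223 CPM lies under the level that 0 counts allow in a control library, so no fold is given. With no such filter edgeR called it higher (adjusted p = 0.00931), the only member called in that direction. Scgb1a1, the club cell secretoglobin, had 0 counts in each control and 5, 0 and 1 in the K5-RANKL libraries. Scgb3a2 had 1 count in all. Of 7 tested markers of airway club and goblet cells, 2 were called higher and 3 lower, beside 34.2% and 32.1% of all genes tested. The other 2 did not pass. The 3 lower markers were Cyp2f2, the most abundant (log2 fold change -1.88), Cldn10 (-1.09) and Aldh1a1 (-0.85). The 2 higher were Reg3g (5.51) and Hp (1.27). Below the filter, Lypd2 had 0 counts in each control and 20, 4 and 15 in K5-RANKL 1, 2 and 3. Bpifa1 had 0 in each control and 15, 11 and 0, and Bpifb1 had 1, 2 and 3 against 59, 36 and 5. Nkx2-1, the lung lineage factor gene of the list, was at 0 in all 6 libraries. The part of airway-like cells in these few secretoglobin counts was not tested.

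The remaining members gave nothing to compare. Scgb1b3 had 2 counts over the controls and 3 over the K5-RANKL libraries, Scgb1b30 had 2 counts in all and Scgb2b12 had 1. Scgb2b3, Scgb1b29, Scgb2b15, Scgb2b17, Scgb2b19, Scgb1b19 and the pseudogene Scgb2b23-ps were listed at 0 in all libraries. A count of 0 allows a level of up to 0.235 to 0.295 CPM in a control library and 0.125 to 0.161 CPM in a K5-RANKL library (3 counts, counting error only). Scgb1b7 and Scgb1b29 are identical over the 282 bases of the shorter transcript, as are Scgb2b15 and Scgb2b17 over 434 bases, so reads of those genes could have been lost or moved by the counting.

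The genes that the salivary acinar cells secrete alongside these proteins were mostly lower too. Of 21 tested acinar products, 19 were called lower and 2 higher, beside 32.1% and 34.2% of all genes tested. The median log2 fold change of the list was -2.29. Dcpp3, a demilune cell and parotid protein gene, had a log2 fold change of -6.64 (SE 0.21, edgeR adjusted p = 2.2e-12), and Pip, the prolactin-inducible protein gene, of -2.53 (SE 0.14, 7.37e-11). Spt1, the gene of highest mean CPM in the list, had a log2 fold change of -1.94 (SE 0.20, edgeR adjusted p = 1.28e-07). The log2 fold changes of the list ran from -7.01 to 6.98, too wide a range for lying inside it to show likeness.

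Markers of the cells moved as well. All 7 tested acinar cell markers were called lower, with a median log2 fold change of -2.11, and their summed level was 78866 to 134003 CPM in controls and 2506.82 to 4680.28 CPM in K5-RANKL libraries. In controls most of this sum was Bpifa2 (mean 86098.8 CPM, log2 fold change -6.24) and Amy1 (18331.6 CPM, -5.04). For Aqp5, Bhlha15, Slc12a2, Chrm3 and Dcpp1 the log2 fold changes were smaller in size, from -2.44 to -1.57. Dcpp1, Bpifa2 and Amy1 also belong to the list of acinar products. All 4 tested macrophage markers were called higher, beside 34.2% of all genes tested. Their summed level was 243 to 311 CPM in controls and 1744 to 1842 CPM in K5-RANKL libraries. The part of cell composition in the lower secretoglobin levels was not tested.

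Products of the granular ducts, where androgens act strongly in rodents, gave a mixed picture. Of 18 tested, 10 were called lower, 1 higher and 7 did not pass, with a median log2 fold change of -0.57. Klk1, the tissue kallikrein gene and the most abundant of the list, had a log2 fold change of -1.56 (SE 0.14, edgeR adjusted p = 2.7e-08), and Klk1b11 of -1.23 (SE 0.10, 6.23e-08). By library totals 9 were called higher and 3 lower, so the direction of this list depends on the scaling. On that scale Klk1 was still called lower (-0.57) and Klk1b11 did not pass (-0.23).

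**Figure D5:**
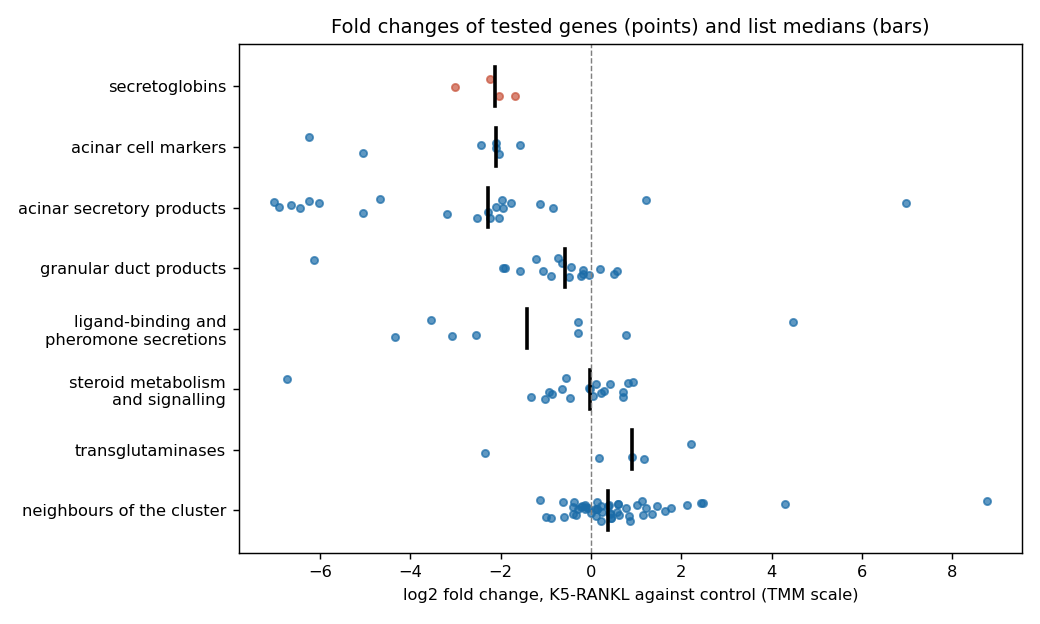
Log2 fold change of each tested gene (points) and the median of each list (bars) for the secretoglobins and 7 other lists, K5-RANKL against control on the TMM scale, with a dashed line at 0. The secretoglobin median of -2.13 lies beside those of the acinar markers (-2.11) and acinar products (-2.29), and the steroid list is centred near 0 (-0.02).

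Genes of steroid metabolism and steroid signalling went both ways. Of 19 tested, 6 were called higher, 8 lower and 5 did not pass, shares near those of all genes (34.2% higher, 32.1% lower), with a median log2 fold change of -0.02. Hsd17b10, a mitochondrial hydroxysteroid dehydrogenase gene, had a log2 fold change of -0.87 (SE 0.09, edgeR adjusted p = 1.78e-07). Fkbp4, a chaperone of steroid receptors and the most abundant of the list, had -0.64 (SE 0.07, 6.04e-07). By library totals 14 were called higher and 2 lower, with log2 fold changes of 0.12 for Hsd17b10, which did not pass, and 0.36 for Fkbp4, which was called higher. Srd5a1, a steroid 5-alpha-reductase gene chosen after its values were seen, stood at 4.92 ± 0.209 and 4.83 ± 0.922 CPM (SD, n = 3 each) and did not pass (edgeR adjusted p = 0.925), while by library totals it was called higher (log2 fold change 0.98).

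Other carriers of small lipophilic ligands and pheromone peptides were few in this tissue. Of 8 tested, 4 were called lower, 2 higher and 2 did not pass, beside 32.1% lower and 34.2% higher of all genes tested. The median log2 fold change of the list was -1.41. Leaving out 1 library at a time gave 4 to 6 called lower and 2 called higher. Lcn2, a lipocalin that binds bacterial siderophores, had a log2 fold change of 4.47 (SE 0.15, edgeR adjusted p = 4.72e-13), from 2.75 ± 0.883 to 61.2 ± 5.70 CPM (SD, n = 3 each). Esp8, an exocrine gland peptide gene, had -3.08 (SE 0.13, edgeR adjusted p = 1.08e-11). Mup5, a major urinary protein gene and the most abundant of the list, had -2.55 (SE 0.43, edgeR adjusted p = 0.00607). So the few tested carriers were called in both directions, as genes were in general.

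Transglutaminases are enzymes that join proteins and for which uteroglobin, the product of Scgb1a1, is a known substrate. Of 5 tested, 3 were called higher, 1 lower and 1 did not pass, beside 34.2% higher and 32.1% lower of all genes tested. The median log2 fold change of these few genes was 0.91. F13a1, the coagulation factor XIII A subunit gene, had a log2 fold change of 2.22 (SE 0.10, edgeR adjusted p = 3.41e-12). Tgm2, tissue transglutaminase and the most abundant of the list, had 0.91 (SE 0.07, edgeR adjusted p = 9.63e-09).

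The genes that flank the androgen-binding protein cluster went both ways, with more called higher than lower. Of 66 other genes of the table within the span or up to 1 Mb outside it, 51 were tested, 25 were called higher, 10 lower and 16 did not pass. Of all genes tested, 34.2% were called higher and 32.1% lower. The median log2 fold change of the neighbours was 0.37, beside 0.01 for all genes tested. Wtip, a LIM domain protein gene that begins 8.7 kb after the cluster, had a log2 fold change of -0.40 (SE 0.09, edgeR adjusted p = 0.00119). Gramd1a, 134.6 kb before the cluster, had -0.34 (SE 0.07, edgeR adjusted p = 0.000586). 4931406P16Rik, 135.9 kb after it, had 0.59 (SE 0.08, edgeR adjusted p = 7.59e-06). These 3 are among the called genes closest to the cluster. By library totals 47 of the neighbours were called higher and none lower, Wtip (0.60) and Gramd1a (0.66) among those higher.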

How the data were processed

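Strand-specific poly(A) RNA libraries were made from salivary gland pools, per the labels' protocols. The authors deposited raw counts of reads for each gene; reads were aligned with STAR to mm10, per the submitters' processing notes. For the aligner's version, the counting program, its annotation and its handling of multi-mapped reads, nothing was given in the sources used here.

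Groups came from the genotype label, with 3 libraries each. Genes were filtered with filterByExpr at its defaults, scaled with TMM and tested with edgeR 4.0.16's quasi-likelihood F-test in R 4.3.3 over all 14044 genes, two-sided, with Benjamini-Hochberg adjustment and a threshold of 0.05. SE is that of the log2 fold change. Shares and count ratios were compared with exact permutation tests. The fit was tested on simulated data. Replicate libraries differed by more than sampling noise (chi-square per gene 6.26 to 38.3 within groups), so each counted once.

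The members and the gene lists were chosen with earlier results of these data known. Values per library are given for members with 10 or more counts in 3 libraries and mean CPM of at least 5 in either group. Srd5a1, the genes of control 2 and some airway markers were added. Of each list, the 2 called genes of smallest p and the most abundant gene are named, and of the neighbours called genes next to the cluster; some genes are not reported here. Transcript lengths and identities came from GENCODE vM21, and promoters from RefSeq on GRCm38.p6. RefSeq lists 53 Scgb genes, of which 28 are not analysed here. Alternatives were other scalings (RLE, upper quartile, library totals, TMM without the 20 most abundant or without the secretoglobin genes), filters, DESeq2 1.42.0, limma 3.58.1 voom with and without quality weights, and each library left out in turn; library totals for the other named genes were added after seeing the data.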

Additional observations from a re-analysis of the deposited data

How the results depend on the processing

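Under all 17 alternatives the 4 tested members were called lower. The log2 fold change ranged from -2.34 to -1.24 for Scgb1b27, -2.13 to -1.03 for Scgb2b27, -3.22 to -2.03 for Scgb2b26 and -1.89 to -0.68 for Scgb1c1, with library totals giving the smallest size each time. By library totals the median of all genes moved from 0.01 to 1.01, and 11733 genes were called higher and 698 lower against 4799 and 4505. The same scaling called 9 granular duct genes higher and 3 lower, 14 steroid genes higher and 2 lower, 4 ligand-binding genes higher, and 47 neighbours higher and 0 lower. Library totals leave out the TMM factors, which averaged 0.708 in controls and 1.41 in K5-RANKL libraries, so log2 fold changes moved up together. Why the factors differed between the groups was not tested. With no low-count filter 1 member was called higher, Scgb3a1. With at least 50 counts in 3 libraries 0 transglutaminases were called lower, since Tgm5 was then not tested. DESeq2 called 2 granular duct genes higher against 1. Leaving out 1 library at a time gave 1 to 2 granular duct genes called higher (2 without control 1 or control 3) and 1 to 2 acinar products called higher (1 without control 2, K5-RANKL 1 or K5-RANKL 2). With the 20 most abundant other genes left out of the total, the share of secretoglobin counts differed by -17.2 percentage points in place of -6.06. For the count ratios, leaving out each library in turn was an alternative chosen after seeing the data, and each ratio kept its direction. No paired analysis was possible because the labels give no replicate numbers that pair the pools. Depth limits the 21 members below the filter, for which the counts are given without a test.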
